A study of Mus musculus with 2 samples.

Results

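The 10 mouse genes that encode miR-15a, miR-15b, miR-16, miR-195a, miR-322, miR-503, miR-103 and miR-107 were followed in microRNA-seq libraries of embryonic neural tube. They were taken by gene name, Mir15a, Mir15b, Mir16-1, Mir16-2, Mir195a, Mir322, Mir503, Mir103-1, Mir103-2 and Mir107, and all 10 were found among the 1973 miRNA genes of the count tables. The tissue came from healthy B6NCrl embryos of day 13.5, with males and females pooled, and the 2 libraries are numbered as biological replicates from separate tissue samples. No second condition, genotype or treatment was part of the design. Values are therefore compared between genes and between libraries, with the spread between the 2 replicates as the error.

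These genes form a superfamily in which the 5′ part of the mature strand holds the letters AGCAGC. A microRNA finds its targets mainly through its seed, bases 2 to 8 from the 5′ end, so members with one seed can share targets. The miR-15/16 group is known for restraint of the cell cycle and of cell survival: it represses D-type and E-type cyclins and BCL2, and the human MIR15A and MIR16-1 locus is lost in many chronic lymphocytic leukaemias. miR-195 acts on the same kind of targets, and miR-322, the mouse counterpart of human miR-424, lies beside miR-503 on the X chromosome and is known from differentiating skeletal muscle. miR-103 and miR-107 come from introns of pantothenate kinase genes, whose enzymes start coenzyme A synthesis, and in mice they are known to lower insulin sensitivity. The first group is called the cell cycle branch below and miR-103 with miR-107 the metabolic branch.

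The mature strands are shown because their seeds define the branches and their copies bear on what could be counted. The sequences are those of RefSeq on GRCm38.p6, written 5′ to 3′, with the seed in capitals.
miR-15a-5p: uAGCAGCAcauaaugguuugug
miR-15b-5p: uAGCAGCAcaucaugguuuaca
miR-16-5p: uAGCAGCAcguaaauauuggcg
miR-195a-5p: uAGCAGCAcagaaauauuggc
miR-322-5p: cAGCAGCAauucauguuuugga
miR-503-5p: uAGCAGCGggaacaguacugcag
miR-103-3p: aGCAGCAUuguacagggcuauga
miR-107-3p: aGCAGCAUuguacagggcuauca

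miR-15a, miR-15b, miR-16, miR-195a and miR-322 share the seed AGCAGCA. The seed of miR-503 is AGCAGCG, and that of miR-103 and miR-107 is GCAGCAU, the same run of letters moved by 1 base. In the metabolic branch the active strand is the 3′ arm of the hairpin, whereas in the cell cycle branch it is the 5′ arm. miR-107 differs from miR-103 by a single substitution, G22C, counted from 1 at the 5′ end of miR-103. miR-195a differs from miR-16 over 21 compared bases by G10A and U11G, and miR-15b from miR-15a by A12C, G20A, U21C and G22A.

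Both miR-16 and miR-103 are encoded by 2 genes, whose hairpins are shown with the longest shared stretch in capitals.
Mir16-1: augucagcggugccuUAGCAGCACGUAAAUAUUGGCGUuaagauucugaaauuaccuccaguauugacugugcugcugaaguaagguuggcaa
Mir16-2: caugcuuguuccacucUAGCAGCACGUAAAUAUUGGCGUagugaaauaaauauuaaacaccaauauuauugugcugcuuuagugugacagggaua
Mir103-1: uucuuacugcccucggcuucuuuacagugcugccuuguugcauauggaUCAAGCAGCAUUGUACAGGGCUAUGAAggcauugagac
Mir103-2: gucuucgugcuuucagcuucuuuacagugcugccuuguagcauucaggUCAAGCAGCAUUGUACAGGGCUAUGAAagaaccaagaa

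The stretch shared by the Mir16 hairpins is 23 bases long and holds the whole 22-base mature strand with 1 base after it. The stretch shared by the Mir103 hairpins is 27 bases long and holds the 23-base mature strand with 3 bases before and 1 base after it. A read that lies inside such a stretch matches both genes equally well. Reads that mapped to several places made up 28.5% and 31.0% of all reads in replicates 1 and 2 and appear to have been counted on no gene. The counts of Mir16-1, Mir16-2, Mir103-1 and Mir103-2 may therefore cover only reads that reach past a shared stretch or come from an arm that is not shared. In the Mir103 hairpins the other arm also holds a run of bases common to both genes, in lower case above. Reads inside that run match both Mir103 genes as well. How many reads of the Mir16 and Mir103 genes were left out was not measured. Mir107 shares 24 bases with each Mir103 hairpin that end before base 22 of the mature strand, so a read that stops short of that base matches all 3 genes. Of the 68 runs of 20 bases in the Mir107 hairpin, 9 occur in another hairpin, not all of them in that stretch. Reads may therefore be missing from Mir107 too.

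Counts on the annotated strand of all miRNA genes came to 7019469 in replicate 1 and 5738209 in replicate 2. Levels are given as CPM, counts scaled to these totals. They compare reads on whole genes and not molecules. Reads of the mature strands shown were not separated from reads of the other arm. Neuronal markers of the tissue were mixed: Mir137 stood at 5025 and 5168 CPM and Mir9-3 at 373 and 415 CPM in replicates 1 and 2. Mir9-2 had 9 and 3 counts. The 3 Mir124a copies had between 0 and 31 counts each, where reads of identical copies may also be missing.

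All 10 members had at least 10 counts in each library, against 18.8% of all genes of the tables (371 of 1973). Of all genes, 1247 had 0 counts in both libraries. Of the members, 8 averaged at least 100 CPM (9.33% of all genes), and 4 averaged at least 1000 CPM (4% of all genes). Among the 371 genes that passed the minimum of 10 counts, 184 averaged at least 100 CPM and 79 at least 1000 CPM. The median of the members was 375 CPM, compared with 95.1 CPM over these 371 genes. Together the family held 1.15% of the counts in replicate 1 (Wilson 95% interval 1.14 to 1.16) and 1.36% in replicate 2 (1.35 to 1.37), which averages to 1.25% ± 0.147 (SD, n = 2). Intervals cover counting error only.

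The cell cycle branch held nearly all of the counts of the superfamily. Its 7 genes had 72874 counts and 70991 counts in replicates 1 and 2, against 7657 and 6796 on the 3 genes of the metabolic branch. The cell cycle branch made up 90.5% and 91.3% of the family's counts, and the metabolic branch 9.51% and 8.74%. As shares of all counts these were 1.14% ± 0.141 for the cell cycle branch and 0.114% ± 0.0066 for the metabolic branch (SD, n = 2). The log2 ratio of the cell cycle to the metabolic branch was 3.25 in replicate 1 (exact binomial 95% interval 3.22 to 3.28) and 3.38 in replicate 2 (3.35 to 3.42). The mean was 3.32 ± 0.095, or 9.97-fold, a gap far larger than the spread between the libraries. An exact two-sided sign-flip permutation test over 2 libraries gave p = 0.5, the smallest p this design allows. The size of the gap rested on Mir322: without it, and with Mir107 kept, the log2 ratio was 1.77 ± 0.15, or 3.41-fold. It also rested on reads that could be assigned to 1 gene, since both branches hold a miRNA with 2 identical copies. With those 4 genes left out the log2 ratio was 3.15. Leaving genes out restores none of the miR-16 or miR-103 reads that may be missing, so it does not measure their effect on the gap. Leaving out the Mir103 genes could hardly change the metabolic side as counted, since Mir107 made up 97.5% and 98.0% of its counts in replicates 1 and 2. Mature miR-103 reads that match both Mir103 genes may be missing from that side.

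**Figure D1:**
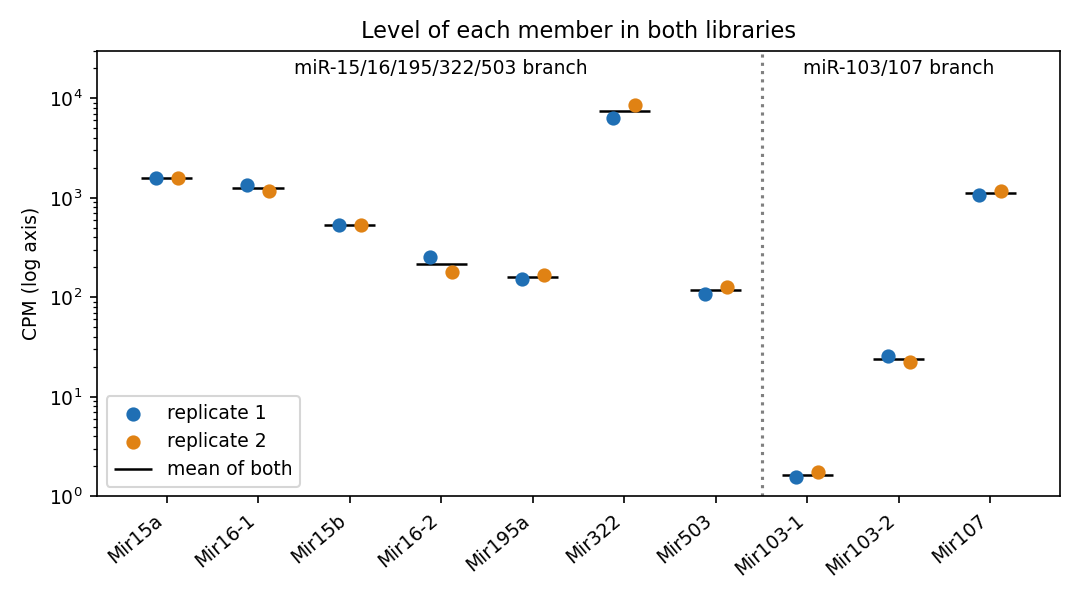
CPM of each member on a log axis, with 1 point per library and a line at the mean of both, the cell cycle branch at the left and the metabolic branch at the right. Mir322 stands alone at 6378 and 8617 CPM, and within the metabolic branch Mir107 lies far above both Mir103 genes.

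Within the cell cycle branch, Mir322 was the highest member in both libraries. It lies on the X chromosome (53054255 to 53054349, minus strand, GRCm38, GENCODE M21), outside annotated host genes of its strand. Its counts were 44771 and 49444 in replicates 1 and 2, or 6378 and 8617 CPM, and ranked 23 among all genes by mean level. Mir322 alone made up 55.6% of the family's counts in replicate 1 and 63.6% in replicate 2. The genes next to it in mean level were Mir20a above, at 8098 ± 1408 CPM, and Mir196b below, at 6322 ± 733 CPM. Over the 2 libraries, mean log2 CPM of Mir322 was 0.12 lower than that of Mir20a and 0.23 higher than that of Mir196b.

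The pair Mir15a and Mir16-1 followed. Both lie in Dleu2, a long non-coding RNA gene, on the minus strand of chromosome 14 (61632027 to 61632110 and 61631880 to 61631972), with 54 bases between their hairpins. Mir15a lies in introns only, and the Mir16-1 hairpin overlaps 1 annotated exon. Mir15a stood at 1595 CPM in replicate 1 and 1594 CPM in replicate 2, nearly the same level in both. Mir16-1 stood at 1359 and 1156 CPM, below Mir15a in both libraries.

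The second pair, Mir15b and Mir16-2, lies in introns of Smc4, a gene for a condensin subunit that compacts chromosomes for mitosis. The hairpins are on the plus strand of chromosome 3 (69009772 to 69009835 and 69009902 to 69009996), 66 bases apart. Mir15b had 532 and 531 CPM, and Mir16-2 had 257 and 179 CPM. The Mir15a and Mir16-1 pair together held 0.285% ± 0.014 of all counts and the Mir15b and Mir16-2 pair 0.0750% ± 0.0055 (SD, n = 2). The log2 ratio of Mir15a to Mir15b was nearly the same in both libraries, at 1.58 and 1.59, and averaged 1.58 ± 0.0015.

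In both pairs the miR-15 gene had more counts than the miR-16 gene beside it. The log2 ratio of Mir15a to Mir16-1 was 0.23 in replicate 1 (exact 95% interval 0.19 to 0.27) and 0.46 in replicate 2 (0.42 to 0.51). That of Mir15b to Mir16-2 was 1.05 (0.97 to 1.13) and 1.56 (1.46 to 1.67). The intervals of the 2 libraries do not overlap in either pair, so the split within a pair differed between the libraries by more than counting error. Genes as a whole did so too (chi-square 201 per degree of freedom over 371 genes). Since reads of the mature miR-16 strand match both Mir16 genes, these ratios do not show that miR-16 was scarcer than miR-15. The ratio of Mir16-1 to Mir16-2 was 5.29-fold in replicate 1 and 6.44-fold in replicate 2, and covers the assignable reads only.

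Mir195a and Mir503 were the lowest members of the branch. Mir195a, on chromosome 11 (70235042 to 70235135, plus strand), stood at 152 CPM in replicate 1 and 166 CPM in replicate 2. Mir503, on the X chromosome (53053984 to 53054054, minus strand), stood at 108 and 128 CPM. Mir503 lies 200 bases downstream of Mir322, yet Mir322 exceeded it 58.8-fold in replicate 1 and 67.1-fold in replicate 2. The mean log2 ratio of Mir322 to Mir503 was 5.97 ± 0.14, the widest gap between neighbouring hairpins among the 3 pairs of members compared.

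**Figure D2:**
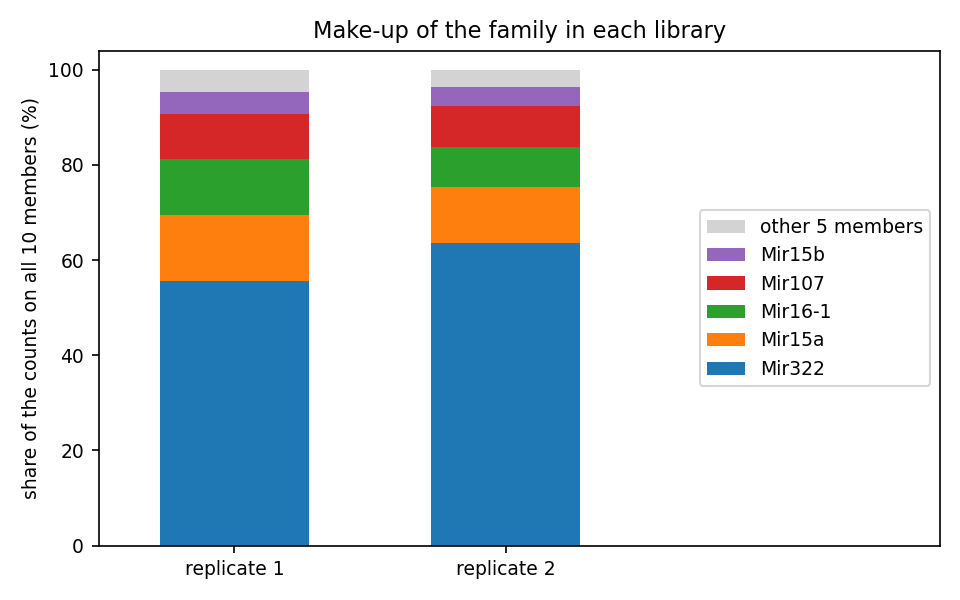
Share of each member in the counts on all 10 members, in percent, as stacked bars for the 2 libraries, with the 5 members below 500 CPM summed. Mir322 fills 55.6% of the bar of replicate 1 and 63.6% of that of replicate 2, and the shares of Mir15a and Mir16-1 are smaller in replicate 2.

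The X-linked cluster goes on past Mir503 with Mir351, Mir542, Mir450-2, Mir450-1 and Mir450b, all within 10 kb of Mir322 on the same strand. Mir351, a relative of the miR-125 family, was the second highest gene of the cluster at 1063 CPM in replicate 1 and 765 CPM in replicate 2. Mir542 stood at 151 and 174 CPM and Mir450b at 36.5 and 45.0 CPM. Mir450-1 had 27 and 20 counts and Mir450-2 had 19 and 11 counts. Mir322 held 82.4% of the counts on the 7 genes of the cluster in replicate 1 and 88.5% in replicate 2. Mir351 held 13.7% and 7.86%, and Mir503 1.40% and 1.32%.

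The split of counts among genes of the cluster differed between the libraries by more than counting error. This is not particular to the cluster, as the libraries differed so over all 371 genes with 10 counts in each (chi-square 201 per degree of freedom). The log2 ratio of Mir322 to Mir351 was 2.58 (exact 95% interval 2.55 to 2.62) in replicate 1 and 3.49 (3.45 to 3.54) in replicate 2. These ratios lie within a library and do not depend on its scaling. Mir503 was likewise further below Mir351 in replicate 1, at a log2 ratio of -3.29 (-3.40 to -3.19), than in replicate 2, at -2.58 (-2.69 to -2.46).

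**Figure D3:**
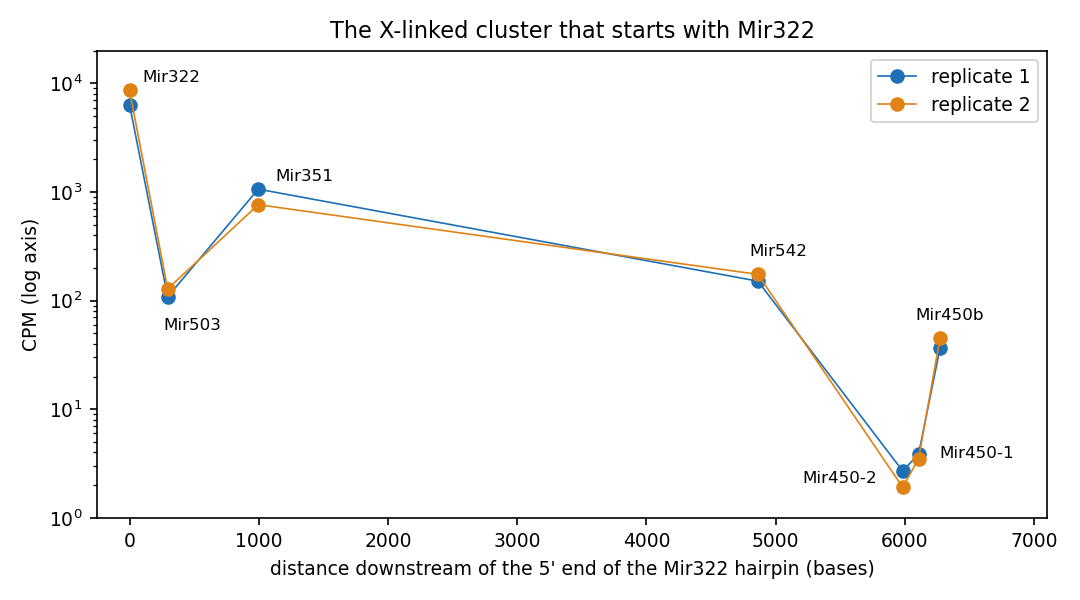
CPM on a log axis of the 7 genes of the X-linked cluster against the distance of each hairpin from the 5′ end of the Mir322 hairpin, in bases, with a line per library. Levels do not fall evenly along the cluster: Mir503 at 108 and 128 CPM lies between Mir322 and the higher Mir351, and replicate 1 is the higher library at Mir351 but not at Mir322, Mir503 or Mir542.

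Mir107 held most of the counts of the metabolic branch that could be assigned to a single gene. It lies in introns of Pank1 on chromosome 19 (34820687 to 34820773, minus strand) with 7467 and 6658 counts in replicates 1 and 2, or 1064 and 1160 CPM. This was 97.5% and 98.0% of the branch's counts, from which mature miR-103 reads may be missing. Mir103-2, in introns of Pank2 on chromosome 2 (131288052 to 131288137, plus strand), had 179 and 128 counts, or 25.5 and 22.3 CPM. Mir103-1, in an intron of Pank3 on chromosome 11 (35782396 to 35782481, plus strand), had 11 and 10 counts, or 1.57 and 1.74 CPM, the lowest level of the 10 members. The genes next to Mir107 in mean level were Mir16-1 above and Mir467c below, the latter at 1045 ± 17.05 CPM. Mean log2 CPM of Mir107 was 0.17 lower than that of Mir16-1 and 0.09 higher than that of Mir467c. Mir107 exceeded Mir103-2 41.7-fold and 52.0-fold, but the mature miR-103 strand lies wholly in the stretch shown in capitals above, and these folds do not compare the mature miRNAs.

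Ranked by mean level, the members ran Mir322, Mir15a, Mir16-1, Mir107, Mir15b, Mir16-2, Mir195a, Mir503, Mir103-2 and Mir103-1. Of the 9 neighbouring pairs in this order, 8 kept it in both libraries. The exception was Mir16-1 and Mir107, at 1359 and 1064 CPM in replicate 1 but 1156 and 1160 CPM in replicate 2. Their means differed by 146 CPM, only slightly above the SD of Mir16-1 of 144 CPM, and their order was not the same in both libraries. The gap between Mir16-2 and Mir195a was 59.0 CPM, also close to the SD of Mir16-2 of 54.6 CPM.

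Other genes with the same letters at the start of the mature strand held no counts. Mir195b, Mir6342, Mir6353 and Mir6419 have the seed AGCAGCA as well and had 0 counts in both libraries, which allows up to 0.427 CPM in replicate 1 and 0.523 CPM in replicate 2 for each (3 counts). miR-497a, encoded beside Mir195a, has that seed too, but its gene Mir497 was not found by name among the genes counted.

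Set beside other groups with roles in growth, the superfamily was the smaller one. The log2 ratio of the family to the 6 genes of the miR-17-92 cluster, which promotes proliferation, was -1.39 and -1.30 in replicates 1 and 2 and averaged -1.35 ± 0.068. The ratio to the 9 let-7 genes, which rise as tissues differentiate, was -2.39 and -2.33 and averaged -2.36 ± 0.045. Both gaps exceeded the spread between libraries. Both lists also hold genes with identical copies. Without the genes for which such a copy was found in the reference sequences, which leaves 6, 4 and 5 genes, the mean log2 ratios were -1.47 and -2.52. Genes with no mature sequence in that reference were kept. Leaving out the genes with a copy restores none of the reads that may be missing from them.

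Between the libraries, 1 of the 9 members with at least 100 counts summed differed by more than 0.5 log2 units, Mir16-2. Among all genes past the same count minimum, 9.48% did (29 of 306), of which 5.56% were higher in replicate 1 and 3.92% in replicate 2. A count of 1 in 9 is close to that background. Mir16-2 had 1802 counts and 1030 counts in replicates 1 and 2, which is 0.55 log2 units higher in replicate 1 (exact 95% interval 0.44 to 0.66). Just inside the limit was Mir322, at -0.40 (-0.42 to -0.38), with the higher level in replicate 2. The members had a median absolute difference of 0.21, against 0.17 over all 306 genes. With 1 library on each side, these differences have no replicate check.

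The other members differed less. Mir16-1 stood at 0.27 (0.22 to 0.31) and Mir103-2 at 0.22 (-0.11 to 0.57), both higher in replicate 1 by their estimates. Mir503 stood at -0.21 (-0.36 to -0.06), Mir195a at -0.10 (-0.22 to 0.03) and Mir107 at -0.09 (-0.14 to -0.04). Mir15a and Mir15b stood at 0.03 (-0.01 to 0.07) and 0.04 (-0.03 to 0.11), with intervals that include 0. Mir103-1, with 21 counts in all, was too shallow for this comparison. The 3 members of the comparison with an identical mature copy, Mir16-1, Mir16-2 and Mir103-2, had the 3 highest differences, a pattern noticed after the values were seen. Multimapping reads were 28.5% of replicate 1 and 31.0% of replicate 2, and their part in this was not tested. A split of the genes outside the family was also chosen after the values were seen. Its median difference was 0.07 over 37 genes with an identical mature copy and -0.03 over 236 without. Of the 37 genes with a copy, 62.2% were higher in replicate 1, and of the 236 without, 45.8% were. The cause of this was not tested.

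The summed levels of muscle and of mesenchymal markers were higher in replicate 2, as was Mir322, but not every marker was. The summed level of the 5 muscle markers counted was 119 CPM in replicate 1 and 378 CPM in replicate 2, nearly all from Mir206, and 3 of the 5 were above 0, with Mir133a-1 and Mir133a-2 at 0 in both. Mir1a-1 went the other way, with 3 counts in replicate 1 and 0 in replicate 2. The 4 mesenchymal markers summed to 8451 and 10425 CPM, with Mir143, Mir140 and Mir214 higher in replicate 2 and Mir145a lower, at 79.9 and 67.8 CPM. The summed levels of the erythroid, endothelial, leukocyte and hepatic markers were higher in replicate 1, and the neuronal sum was slightly higher in replicate 2. The part of any of these markers in the difference of Mir322 was not tested. Without Mir322 the family's share was 0.509% in replicate 1 and 0.494% in replicate 2, so the gap of the family between the libraries came from that gene.

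**Figure D4:**
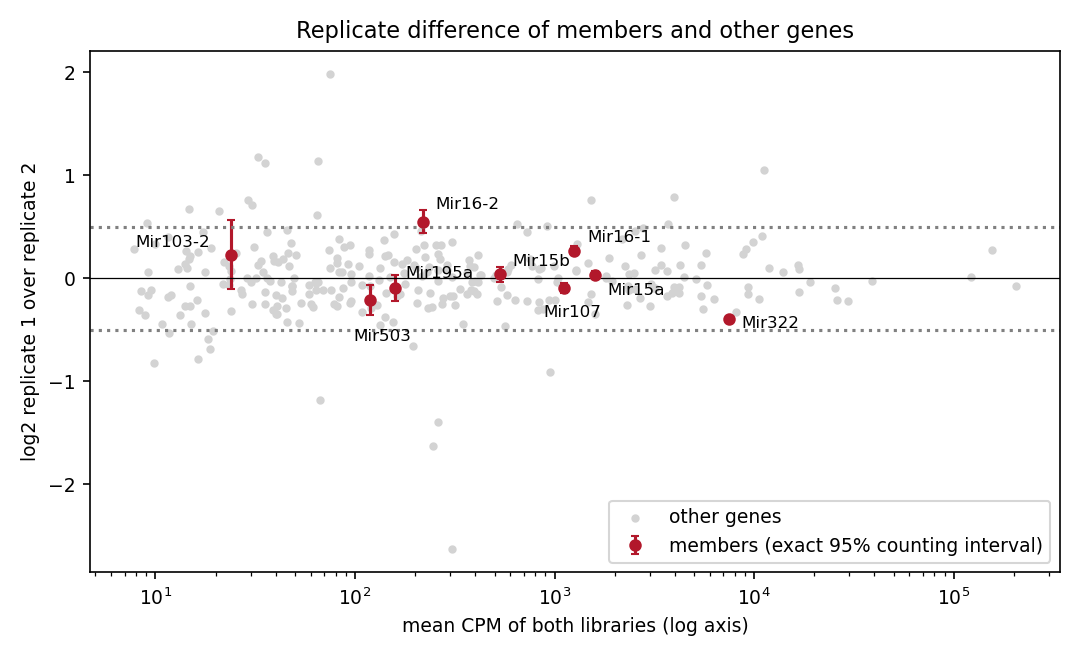
Log2 difference of replicate 1 over replicate 2 against mean CPM on a log axis, for 9 members with exact 95% counting intervals and for the other genes with at least 100 counts summed as grey points. Mir16-2 at 0.55 is the one member beyond the dotted lines at 0.5 and -0.5, and Mir322 at -0.40 is the lowest member.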

How the data were processed

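For each of the 2 libraries of 1 group the authors deposited a table of unnormalised counts by miRNA gene, on mm10 with annotation M4 according to the file headers. The aligner and the counter are not given in the sources used. Each table has an unstranded, a same-strand and an opposite-strand column. The strand roles, and the reading that multimapping reads are in no gene's count, were inferred from the values. Same-strand counts over 1973 genes were scaled to CPM; the 4 lines of reads in no gene were left out. Names and coordinates came from GENCODE M21 (1894 matched without version), sequences from RefSeq GRCm38.p6. The libraries differed beyond counting error (chi-square 201 per degree of freedom over 371 genes).

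Shares have Wilson and ratios exact binomial 95% intervals. The difference of a gene between replicates is log2 of the count ratio after 0.5 was added to each count, with TMM scaling (edgeR 4.0.16, R 4.3.3) over genes with 10 counts in each library, for genes with 100 counts summed. DESeq2 1.42.0 size factors were an alternative. Other steps used Python 3.11.15 and scipy 1.17.1. The differences and intervals were tested on simulated Poisson counts. Those hold counting error only and lack the wider spread between these libraries. Cluster log2 ratios of Mir15a to Mir16-1, Mir15b to Mir16-2 and Mir322 to Mir503 carry the same pseudocount.

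Members, lists and rules were chosen with earlier results of these data known. Named genes are the members, table genes within 10 kb on their strand, genes with AGCAGC at bases 2 to 7 or 1 to 6, listed cluster partners, the genes next in level to Mir322 and Mir107, Mir10a, and listed markers of other cell types. The marker lists whose sums are not given above summed in replicates 1 and 2 to 76.1 and 48.3 CPM (3 erythroid) and 17134 and 16019 CPM (endothelial). The leukocyte list summed to 156 and 124 CPM, the hepatic list to 118 and 30.7 CPM and the 6 neuronal genes to 5405 and 5587 CPM.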

Additional observations from a re-analysis of the deposited data

Results flagged for a closer look

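The row of Mir497b, a gene on the minus strand of chromosome 11 (70234692 to 70234816), held 1086 opposite-strand counts in replicate 1 and 920 in replicate 2, a signal in a column the comparisons do not use. On its own strand it had 1 and 0 counts. Scaled to the same-strand totals, the opposite-strand signal was 158 ± 3.97 CPM (SD, n = 2). Its opposite strand is that of Mir195a and of miR-497a-5p, whose mature sequence has the seed of the cell cycle branch in capitals: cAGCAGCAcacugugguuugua. The log2 ratio of Mir195a to this signal was -0.03 in replicate 1 (exact 95% interval -0.15 to 0.10) and 0.05 in replicate 2 (-0.08 to 0.18). The miR-497a-5p strand (70234730 to 70234751, plus strand) lies within the span of the Mir497b row. Whether the opposite-strand reads are miR-497a was not tested.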

How the results depend on the processing

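With the total taken without Mir10a, the shares were 1.57% for the family, 1.43% for the cell cycle branch and 0.143% for the metabolic branch, and the 10 levels were higher too, since the total is smaller. With unstranded counts Mir15a and Mir15b were at 1571 and 524 CPM, which is below the reported levels by more than their small SDs. Without members with an identical copy, the cell cycle branch held 0.990% and the log2 branch ratio was 3.15. Without the genes found to have such a copy on both sides, the log2 ratios to the miR-17-92 and let-7 genes were -1.47 and -2.52. These settings restore no reads that were left out, so they do not measure the effect of missing reads. Without Mir322, chosen after seeing the data, the family held 0.502%, the cell cycle branch 0.388%, and the log2 branch ratio was 1.77. Without the highest member of each branch it was 7.25, as only the Mir103 genes then stand below the line. With minimums of 10 and 1000 counts summed, 105 and 13 genes differed by more than 0.5 log2 units in place of 29, and the number of members stayed at 1. The opposite-strand counts of Mir497b, added after seeing the data, and the other alternatives moved the shares and log2 ratios by less than the replicate SD and left the gene counts within 1.5 times of those reported. Some of these outcomes were fixed in advance. A single library of 2 always lies within the SD of their mean. No member had opposite-strand counts, so unstranded counts could not change ratios between members. No log2 ratio between groups or neighbours changed sign under the alternatives run. Leaving out each replicate in turn gives the values of the single libraries: 1.15% to 1.36% for the family, 1.04% to 1.24% and 0.109% to 0.118% for the branches and 3.25 to 3.38 for their log2 ratio. The ranges were 0.23 to 0.46 for Mir15a over Mir16-1, 1.05 to 1.56 for Mir15b over Mir16-2 and 5.88 to 6.07 for Mir322 over Mir503. To the miR-17-92 and let-7 genes they were -1.39 to -1.30 and -2.39 to -2.33. Replicate differences cannot be had without a replicate. No paired analysis was possible because there is 1 group only.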
